A study of Homo sapiens with 3 samples.

Results

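Kinesins, cytoplasmic dynein and dynactin are the motor proteins that carry cargo along microtubules, and the skipped exons of their genes are described here. Members were matched by gene symbol alone, with earlier results of these data known. They were every row with a symbol of a kinesin heavy chain (KIF), kinesin light chain (KLC), kinesin-associated protein (KIFAP), dynein chain (DYNC, DYNLL, DYNLRB, DYNLT) or dynactin subunit (DCTN). The symbol rule also took in the antisense RNA KIF9-AS1 and a second locus listed as KLC1. This gave 326 of 83220 deposited exon-skipping events, 158 of 40702 in the first table and 168 of 42518 in the second, in 159 exons under 45 gene symbols. The RNA came from BJ cells, an established line of human foreskin fibroblasts, on day 8 after viral expression of OCT4, SOX2, KLF4 and MYC (OSKM) was induced. All 3 samples carried OSKM, and they differed in the siRNA: non-targeting (genotype label WT), SMAD3 (SMAD3 Knock-down) or SFRS11 (SFRS11 Knock-down, current symbol SRSF11), with 1 library each and no replicate.

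The deposited tables compare a library coded RS2 and a library coded RS3, each with the same further library, called the comparator here. Values of an exon in the 2 tables are therefore not independent, and an equal value in both is not a repeated observation. No label ties these codes to a siRNA, so nothing below is assigned to a knockdown. Each difference is inclusion level in RS2 or RS3 minus inclusion level in the comparator, where inclusion level is the share of transcripts over the region that keep the exon, so a difference can run from -1 to 1. This direction was read from rows at the head of the tables, where it equals the first listed level less the second, and every statement of lower or higher inclusion rests on it. Calls required a deposited false discovery rate (FDR) under 0.05 together with a difference of 0.1 or more in either direction. Deposited p-values set 2 libraries side by side, not 2 treatments, depth is unknown, and the tables hold no expression levels, so neither the fibroblast identity nor the knockdowns could be checked with marker genes. In bulk RNA, a change of splicing within cells and a change in the mix of cells cannot be told apart.

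Kinesins mostly walk towards the plus ends of microtubules, which usually lie at the cell periphery, while cytoplasmic dynein walks towards the minus ends near the centrosome. Dynactin is the large complex that joins dynein to cargo and keeps it on its track, and kinesin light chains are the subunits that link kinesin-1 to many of its cargoes. Several motor genes are spliced into variants that differ in their cargo-binding tails, and in fibroblasts these motors move endosomes, mitochondria and Golgi membranes and, in dividing cells, chromosomes and spindle microtubules.

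Few motor exons were called in either table. In RS2, 0 of 158 motor events were called by the deposited FDR and difference, where 0.0712% of all events were called. In RS3, 2 of 168 motor events (1.19%) were called against 0.967% of all events, and that share is near the background. Both had lower inclusion, as 0.736% of all RS3 events were called with lower inclusion. They were a 131-base exon of KLC1 (-0.184) and a 39-base exon of KIF13A (-0.174) in the authors' deposited table. Counted by gene symbol, 2 of 45 motor symbols (4.44%) had a called event in RS3 against 3.06% of all genes, and 0 of 44 had a call in RS2 against 0.238%. By exon, the shares were 2 of 147 (1.36%) against 1.13% in RS3 and 0 of 135 against 0.08% in RS2.

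Unadjusted p-values were read against the same background. In RS2, 5 motor events (3.16%) had a deposited p under 0.05, against 4.52% of all events, 4 of them (2.53%, against 2.02% of all events) with higher and 1 (0.633%, against 2.5%) with lower inclusion. In RS3 there were 10 (5.95%) against 7.61%, 1 (0.595%, against 2.41%) with higher and 9 (5.36%, against 5.2%) with lower inclusion. These events are not all separate observations. Of the 9, 3 were in KIFC3, 2 were rows of the same KLC1 exon and 1 was at the second locus listed as KLC1. Of the 4 with higher inclusion in RS2, 2 were in KLC1. With the FDR alone and no minimum difference, 0 motor events passed in RS2 and 3 in RS3, a KIFC3 exon besides the called exons, against 0.165% and 1.64% of all events.

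**Figure D1:**
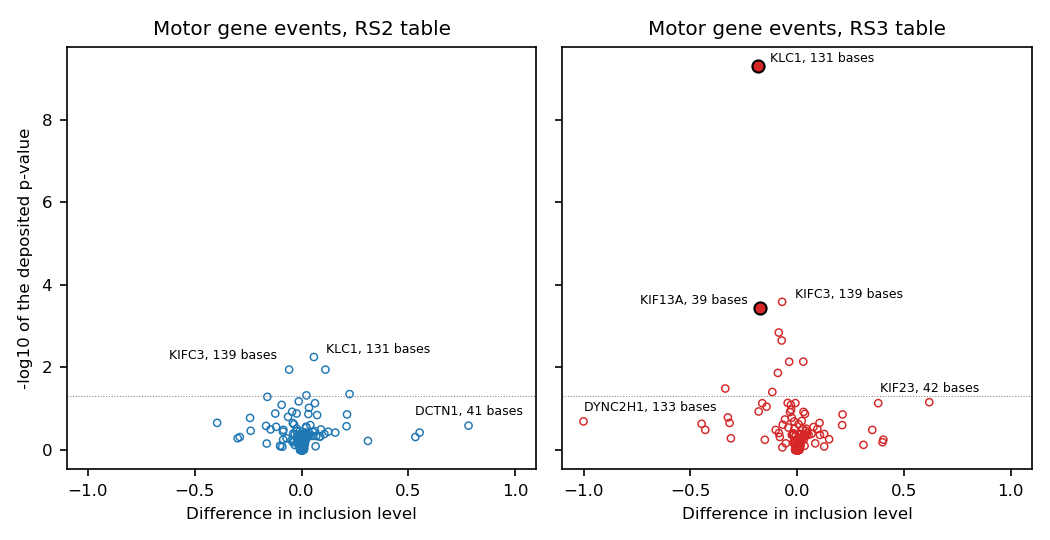
Deposited p-value of each motor event (y axis, -log10) against its difference in inclusion level (x axis, library minus comparator), for RS2 (left) and RS3 (right). Filled points were called, and the dotted line marks a deposited p of 0.05. The 2 called events, KLC1 at -0.184 and KIF13A at -0.174, are in RS3, while large differences such as those of DCTN1 (0.782) and DYNC2H1 (-1) lie under the line.

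Kinesin-1, the founding long-range transporter, is built from heavy chains (KIF5) and light chains (KLC). It gave 26 events in 14 exons in RS2 and 27 events in 14 exons in RS3, from 4 of its 7 genes: KIF5B, KLC1, KLC2 and KLC4. The only called kinesin-1 exon was in KLC1 (ENSG00000126214, chromosome 14, plus strand), at chr14:104153418-104153548 in hg19. This exon and the 67-base exon at chr14:104158696-104158762 lie next to each other near the end of a GENCODE transcript with 16 exons, as exons 14 and 15, in the region that encodes the variable tail of the light chain. Neither length is a multiple of 3, but together they span 198 bases, or 66 codons. The letters below are shown because these exons hold the KLC1 rows with the smallest p-values in each table. They come from GENCODE release 29 transcripts on GRCh38, matched by gene identifier and exon length and not by position, in transcript direction, with the exon in capitals and 20 bases of each neighbouring exon of that transcript in lower case.
KLC1 exon of 131 bases: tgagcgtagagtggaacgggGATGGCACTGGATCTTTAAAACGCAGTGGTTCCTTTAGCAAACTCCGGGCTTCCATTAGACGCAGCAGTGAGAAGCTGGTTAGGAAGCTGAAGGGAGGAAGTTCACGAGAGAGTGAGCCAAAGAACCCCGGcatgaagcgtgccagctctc
KLC1 exon of 67 bases: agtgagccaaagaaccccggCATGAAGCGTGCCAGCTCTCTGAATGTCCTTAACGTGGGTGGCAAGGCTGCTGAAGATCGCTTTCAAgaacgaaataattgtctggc
GENCODE places the 131-base exon in 8 KLC1 transcripts, in 7 of them as wholly coding sequence, and 4 transcripts pass over it. Of these 4, 0 join the neighbouring exons printed here directly. The 67-base exon is passed over by 5 transcripts, and 0 of them join its printed neighbours directly.

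The 131-base KLC1 exon was listed in 6 rows in each table, which differ in flanking exons that the tables do not give. In RS3 the rows in the authors' deposited table were -0.184, -0.090, -0.033, 0.011, 0.015 and 0.022. Inclusion thus fell in the called row, with a deposited FDR of 2.08e-07 and p of 4.98e-10. The row of -0.090 had a deposited p of 0.0136 and an FDR of 0.337, and the other 4 rows lay between -0.033 and 0.022. In RS2 the rows in the authors' deposited table were 0.058, 0.035, 0.032, 0.016, -0.001 and -0.041. The row of 0.058 had the smallest p of all motor events in RS2 (0.0056), with an FDR of 0.587, so it was not called. The smallest-p rows of the exon thus had opposite signs in the 2 tables. Rows cannot be paired between tables without their flanks, and RS3 was not tested against RS2.

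The neighbouring 67-base exon of KLC1 also had 6 rows per table, of both signs. In the authors' deposited table they ran from -0.063 to 0.112 in RS2 and from -0.057 to 0.043 in RS3. Its RS2 row of 0.112 had a p of 0.0113 and an FDR of 0.777 in the authors' deposited table, and the smallest RS3 p was 0.0727. The next KLC1 exon towards the 3′ end, of 82 bases, was -0.041 in RS2 (p = 0.650) and -0.143 in RS3 (p = 0.0893) in the authors' deposited table. Upstream, the 231-base exon (0.013 and 0.005) and the 51-base exon (0.006 to 0.020 in RS2 over 3 rows, -0.012 to 0.012 in RS3 over 4 rows) stayed near 0 in the authors' deposited table. The larger KLC1 values were therefore at its 3 most downstream listed exons.

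The other kinesin-1 genes had small differences. KLC2 lay between -0.014 and 0.013 over 4 exons in the authors' deposited table. KIF5B, the heavy chain that most cell types use, had a single 88-base exon at -0.002 in RS2 and 0.004 in RS3 in the authors' deposited table. KLC4 stayed within 0.010 of 0 except at an 88-base exon, with -0.119 in RS2 (p = 0.276) and -0.100 in RS3 (p = 0.328) in the authors' deposited table.

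A further 2 exons carried the symbol KLC1 under another identifier, ENSG00000256500, a locus that GENCODE describes as overlapping and that is annotated apart from KLC1. Its 64-base exon (chr14:104040444-104040507 in hg19), whose annotated counterpart overlaps an exon of APOPT1, was -0.047 in RS2 (p = 0.584) and -0.116 in RS3 (p = 0.0395, FDR 0.593) in the authors' deposited table. Its 198-base exon was -0.004 and 0.012 in the authors' deposited table. These rows met the symbol rule and stay in the counts, but they are not light chain exons of ENSG00000126214.

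**Figure D2:**
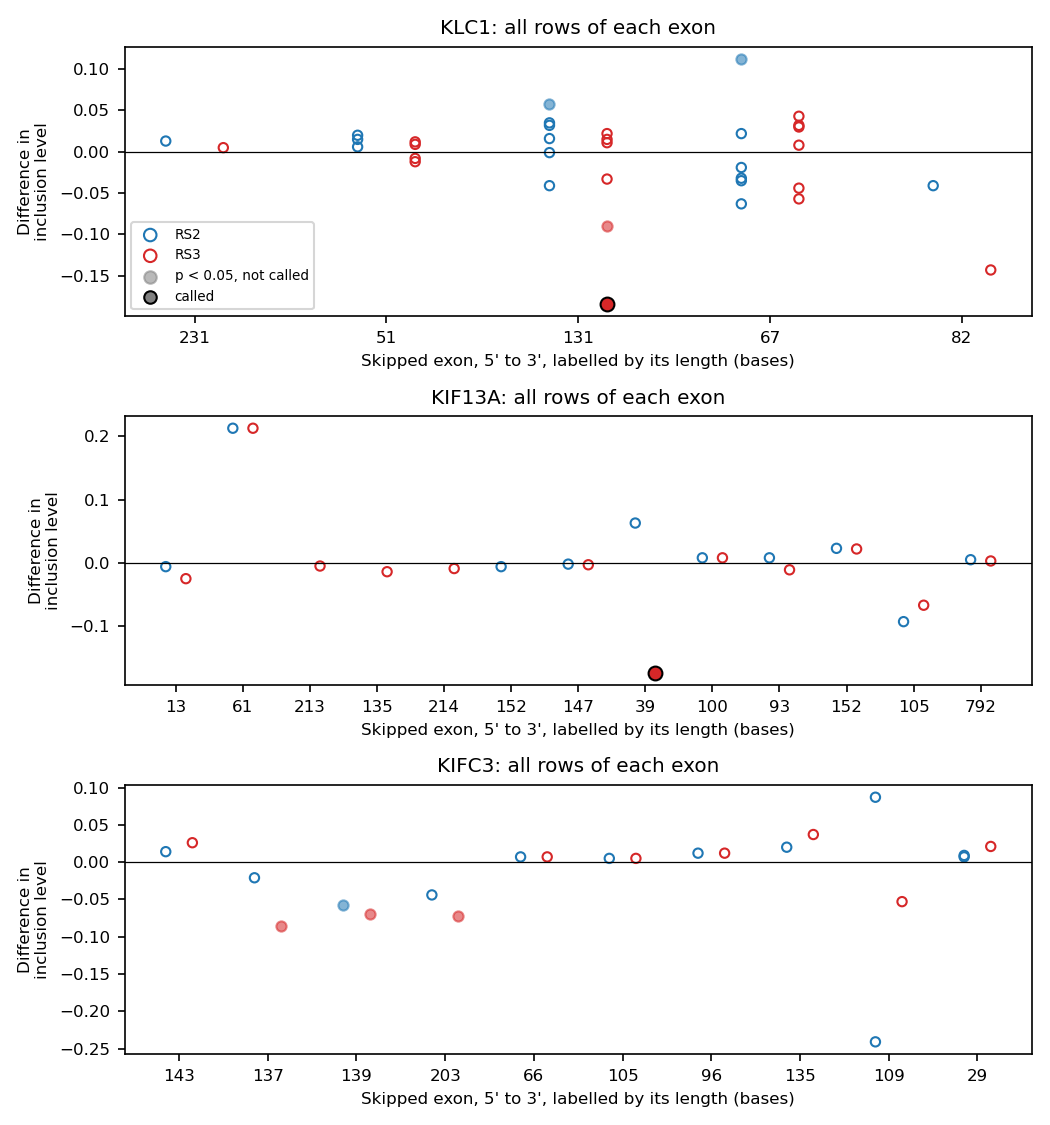
Difference in inclusion level (y axis) for all rows of each skipped exon of KLC1, KIF13A and KIFC3, with exons in 5′ to 3′ order along the x axis and labelled by length in bases. RS2 is blue and RS3 is red; filled points with a black edge were called and paler filled points had p under 0.05 without being called. In KLC1 the rows of the 131-base exon spread from -0.184 to 0.058, and in KIF13A the 39-base exon stands at -0.174 in RS3.

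Kinesin-3 motors move endosomes and other vesicles. They gave 26 events in RS2 and 28 in RS3, from 5 of 8 genes: KIF1B, KIF1C, KIF13A, KIF13B and KIF16B. The called exon was in KIF13A (ENSG00000137177, chromosome 6, minus strand), a motor of recycling endosomes, at chr6:17790103-17790141 in hg19. It is 39 bases long, or 13 codons, so leaving it out keeps the reading frame. GENCODE has it as wholly coding in all 4 transcripts that contain it, and 5 transcripts skip it, 4 of which join its neighbours directly. Its sequence and that of the 105-base exon further downstream (chr6:17771345-17771449 in hg19), which had the next smallest KIF13A p in RS2, are shown in the same way as for KLC1.
KIF13A exon of 39 bases: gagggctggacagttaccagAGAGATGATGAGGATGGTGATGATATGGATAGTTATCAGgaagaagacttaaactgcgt
KIF13A exon of 105 bases: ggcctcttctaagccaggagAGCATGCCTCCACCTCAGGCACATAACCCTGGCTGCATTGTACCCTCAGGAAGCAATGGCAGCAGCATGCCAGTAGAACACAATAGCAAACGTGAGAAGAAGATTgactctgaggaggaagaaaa
The 39-base exon holds 13 A, 14 G, 11 T and 1 C, a GC content of 38.5%, against 50.5% in the 105-base exon.

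The 39-base KIF13A exon had a single row in each table, so its values are free of the doubt over flanking exons within a table. Inclusion fell by 0.174 in RS3 in the authors' deposited table (p = 0.000366, FDR 0.0266). In RS2 it was 0.063 (p = 0.0738, FDR 1) in the authors' deposited table, on the other side of the comparator, and RS3 was not tested against RS2. The 105-base exon was -0.093 in RS2 (p = 0.0809) and -0.067 in RS3 (p = 0.245) in the authors' deposited table, without a call in either table. A 61-base exon near the 5′ end had the largest KIF13A value, 0.213 in both (p = 0.138), in the authors' deposited table. The other 10 KIF13A exons lay between -0.025 and 0.023 in every row of the authors' deposited table, among them a 792-base exon at 0.005 and 0.003.

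Among the other kinesin-3 genes, KIF1C, which moves Golgi-derived vesicles, was the steadiest, with 8 exons within 0.008 of 0 in the authors' deposited table. KIF1B, a carrier of mitochondria and vesicles, ranged from -0.039 to 0.027 in the authors' deposited table. KIF16B, a motor of early endosomes, had a 153-base exon at 0.091 in RS2 (p = 0.319) and -0.180 in RS3 (p = 0.117) in the authors' deposited table, and its other exons were 0.029 and 0.041 in both. The differences in KIF13B were large but had p-values of 0.327 or more. Its 100-base exon was -0.299 in RS2 (p = 0.523) and 0.404 in RS3 (p = 0.565), and its 134-base exon was -0.430 in RS3 (p = 0.327), in the authors' deposited table. Its 63-base exon was -0.238 in RS2 (p = 0.344) and 0.150 in RS3 (p = 0.552) in the authors' deposited table.

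KIFC3 was the single kinesin-14 gene with events of the 4 on the list; kinesin-14 motors walk towards the minus end, and KIFC3 acts in Golgi positioning and at cell junctions. Its 139-base exon (ENSG00000140859, chr16:57822487-57822625 in hg19, minus strand) was -0.058 in RS2 (p = 0.0113, FDR 0.777) and -0.070 in RS3 (p = 0.000257, FDR 0.0202) in the authors' deposited table. The RS3 value passed the FDR and missed the minimum difference. The exons on either side of it, chosen after their values were seen, had these values. The 137-base exon upstream was -0.021 in RS2 (p = 0.499) and -0.086 in RS3 (p = 0.00143, FDR 0.0761), and the 203-base exon downstream was -0.044 (p = 0.119) and -0.072 (p = 0.00223, FDR 0.105), in the authors' deposited table. By GENCODE, the 139-base exon lies in 2 transcripts and the 137-base exon in 1, without coding sequence in any, and the 203-base exon is in part coding in 2. Both tables use the same comparator, so their values for these exons are not independent. In GENCODE, 14 transcripts skip the 139-base exon.

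The rest of KIFC3 mostly stayed near 0. Of its other 7 exons, 6 lay between 0.005 and 0.037 in the authors' deposited table. The exception was a 109-base exon with RS2 rows of -0.241 (p = 0.168) and 0.087 (p = 0.479) and an RS3 row of -0.053 (p = 0.694) in the authors' deposited table.

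Kinesin-2 drives transport in cilia and, through KIF17, in dendrites. Of its 5 genes, KIF3A, KIF17 and KIFAP3 had 4 events in RS2 and 5 in RS3, and 0 were called. Over all events, 0.0712% were called in RS2 and 0.967% in RS3. A count of 0 among so few events therefore says little, here and in each subfamily below. A 557-base coding exon of KIF17 (chr1:21013881-21014437 in hg19) was 0.225 in RS2 (p = 0.0443, FDR 1) and 0.127 in RS3 (p = 0.411) in the authors' deposited table. KIF17 had another exon, of 118 bases, at -0.163 in RS3 (p = 0.0739), and a further exon, of 212 bases, at -0.032 in RS2 (p = 0.760) and 0.095 in RS3 (p = 0.313), in the authors' deposited table. KIFAP3, the subunit that ties the motor to cargo, had a 132-base exon at -0.004 in RS2 (p = 0.749) and -0.037 in RS3 (p = 0.00729, FDR 0.234) in the authors' deposited table. The KIF3A exon of 69 bases was at 0.311 in both of the authors' deposited tables, with a deposited p of 0.606 in RS2 and 0.753 in RS3.

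Kinesin-4 includes KIF4A, which acts on chromosomes and the central spindle, and KIF7, a regulator of Hedgehog signalling in the cilium. It gave 10 events in RS2 and 8 in RS3 from 4 of 6 genes, 0 of them called. The largest difference was a 39-base coding exon of KIF21B at 0.380 in RS3 (p = 0.0736, FDR 0.763) against -0.100 in RS2 (p = 0.792) in the authors' deposited table. KIF21A had a 69-base exon at 0.107 in both (p = 0.411 and p = 0.434) and a 171-base exon at 0.053 and 0.068 in the authors' deposited table. The 352-base KIF7 exon had RS2 rows of -0.123 (p = 0.131) and 0.011 and an RS3 row of 0.015 in the authors' deposited table. KIF4A lay between -0.013 and 0.069.

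Of the kinesins grouped as mitotic and other plus-end motors, KIF18B, KIF20A, KIF22 and KIF23 had 15 events in RS2 and 14 in RS3, and 0 were called. KIF23 is part of the complex that builds the central spindle in cytokinesis. Its 42-base exon (chr15:69717621-69717662 in hg19) had the largest positive motor value in RS3, 0.619 (p = 0.0698, FDR 0.748), against -0.090 in RS2 (p = 0.839), in the authors' deposited table. GENCODE has this exon in 3 transcripts, and 7 skip it. The other KIF23 exons lay between -0.087 and 0.063 in the authors' deposited table. A 49-base exon of KIF22, a chromosome-arm motor, was 0.023 in RS2 (p = 0.0477) and 0.005 in RS3 (p = 0.629) in the authors' deposited table, without coding sequence in its single annotated transcript, and its other exons lay between 0.002 and 0.007. KIF18B and KIF20A stayed within 0.034 and 0.009 of 0 in the authors' deposited table.

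Kinesin-13 proteins take microtubules apart. KIF2A, KIF2C and KIF24 had 6 events per table with 0 called. A 122-base exon of KIF24, a centriole protein, was 0.158 in RS2 (p = 0.381) and -0.316 in RS3 (p = 0.222) in the authors' deposited table. KIF2A, with a single 203-base exon, was -0.015 and -0.009, and a 96-base KIF2C exon was -0.085 in RS2 (p = 0.326), in the authors' deposited table. The remaining KIF2C exons lay between -0.019 and 0.043, and the 106-base KIF24 exon was 0.085 in both, in the authors' deposited table.

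In the kinesin-9 and kinesin-11 list, KIF9, KIF26A and KIF26B had 6 events in RS2 and 8 in RS3, with 0 called. KIF9, a kinesin of motile cilia, had a 195-base exon (chr3:47284541-47284735 in hg19) at -0.336 in RS3 (p = 0.0325, FDR 0.541) and 0.066 in RS2 (p = 0.817) in the authors' deposited table. Its annotated counterpart overlaps an exon of the antisense RNA KIF9-AS1, and counting by strand is not stated in the sources used here, so reads of the 2 genes may not be told apart. The other KIF9 exons lay between -0.081 and -0.007 in the authors' deposited table. KIF9-AS1 met the symbol rule without being a motor gene. It had -0.166 (p = 0.262) and 0.125 (p = 0.362) in RS2 and 0.127 (p = 0.827) in RS3 in the authors' deposited table. KIF26A, which lacks motor activity, had a 188-base exon at -0.160 in RS2 (p = 0.0517) and 0.032 in RS3 (p = 0.473) in the authors' deposited table, and its other exons lay between 0.020 and 0.073. KIF26B was listed in RS3 alone, at -0.310 (p = 0.524) in the authors' deposited table.

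**Figure D3:**
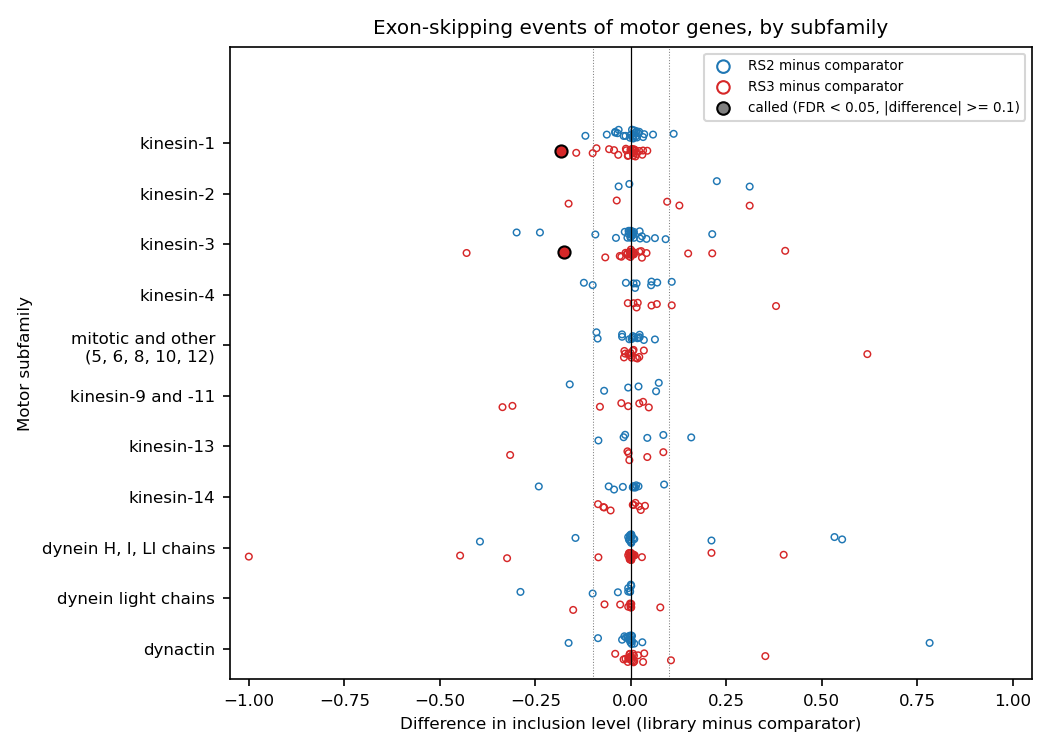
Difference in inclusion level of every motor event (x axis) by subfamily (y axis), for RS2 in blue and RS3 in red; filled points were called and dotted lines mark differences of 0.1 in either direction. KIF9-AS1 and the second locus listed as KLC1 are left out; dynein H, I, LI chains are the heavy, intermediate and light intermediate chains. Most events lie within 0.1 of 0, fewer so in kinesin-2, where 2 of 4 RS2 and 3 of 5 RS3 events do not, and the called events are 1 each in kinesin-1 and kinesin-3.

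Cytoplasmic dynein had 0 called events in its listed heavy, intermediate and light intermediate chains (20 events in RS2, 25 in RS3, all 7 listed genes). The dynein chains WDR34 and WDR60 fall outside the symbol rule and are not among them. The called shares over all events were 0.0712% in RS2 and 0.967% in RS3, so 0 among so few events says little about dynein. DYNC1H1, the heavy chain that hydrolyses ATP, stayed close to 0: its 9 exons lay between -0.005 and 0.001 in both tables, the authors' deposited values. DYNC1I2, an intermediate chain that binds dynactin, lay within 0.005 of 0 in the authors' deposited table. DYNC1LI2, a light intermediate chain that binds cargo adaptors, had an 87-base exon at -0.007 in RS2 (p = 0.423) and 0.029 in RS3 (p = 0.00724, FDR 0.233) in the authors' deposited table. Its other 6 exons were within 0.010 of 0.

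Large dynein differences came with high p-values. DYNC1I1, the other listed intermediate chain, had a 60-base coding exon at 0.553 in RS2 (p = 0.380) and -0.447 in RS3 (p = 0.233) in the authors' deposited table. DYNC1LI1 had a 170-base exon at 0.533 in RS2 (p = 0.487) and 0.400 in RS3 (p = 0.653), and a 231-base exon at -0.395 in RS2 (p = 0.221), in the authors' deposited table; its 117-base exon was 0.006 and 0.005. DYNC2H1, the heavy chain of ciliary transport, had a 133-base exon at -1 in RS3 (p = 0.204), the lower end of the scale, and a 210-base exon at -0.145 in RS2 (p = 0.319) and -0.324 in RS3 (p = 0.163), in the authors' deposited table. DYNC2LI1 had a 70-base exon at 0.211 in both (p = 0.267 and p = 0.251) and a 137-base exon at -0.085 in RS3 (p = 0.391) in the authors' deposited table. None of these was called, and the tables give no read counts that would tell how many reads stand behind such values.

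The dynein light chains, small subunits that link the intermediate chains, had 9 events in RS2 and 11 in RS3, from DYNLL1, DYNLL2, DYNLRB1 and DYNLT1, with 0 called. DYNLRB1, DYNLT1 and DYNLL2 stayed within 0.002, 0.007 and 0.028 of 0 in the authors' deposited table. DYNLL1 was more spread: its 123-base exon had rows of -0.289 (p = 0.488) and -0.034 in RS2 and of 0.077 (p = 0.279) and -0.069 in RS3 in the authors' deposited table. Its 154-base exon was -0.100 in RS2 (p = 0.813) and -0.151 in RS3 (p = 0.568) in the authors' deposited table, and its other exons were at 0 or 0.001.

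All 6 dynactin genes on the list were measured, with 20 events in RS2 and 23 in RS3 and 0 called. DCTN1 encodes the arm that touches the microtubule. Its 41-base exon, without coding sequence in its single annotated transcript and overlapping an exon of DCTN1-AS1, was 0.782 in RS2 (p = 0.258) in the authors' deposited table, the largest motor difference there. The neighbouring 146-base DCTN1 exon had rows of 0.003 and -0.163 (p = 0.701) in RS2 and of 0.007 and 0.352 (p = 0.328) in RS3 in the authors' deposited table. A 68-base DCTN1 exon, in RS3 alone, had rows of 0.105 (p = 0.222) and 0.005, a 64-base exon was -0.086 in RS2 (p = 0.562) and 0.035 in RS3 (p = 0.796), and a 15-base exon was 0.019 in RS3 (p = 0.424), in the authors' deposited table. The DCTN1 exons of 90, 126, 162 and 192 bases were within 0.008 of 0.

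The remaining dynactin subunits had small differences. DCTN2, which holds the arm to the filament, was within 0.008 of 0 in the authors' deposited table, with its smallest p (0.0733) at a 69-base exon of -0.008 in RS3. DCTN3 and DCTN4 were within 0.014 and 0.019 of 0, and DCTN6 within 0.023. DCTN5, at the pointed end of the complex, ranged from -0.041 to 0.032, and its smallest p (0.0667) was for a 101-base exon at -0.013 in RS2, in the authors' deposited table.

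**Figure D4:**
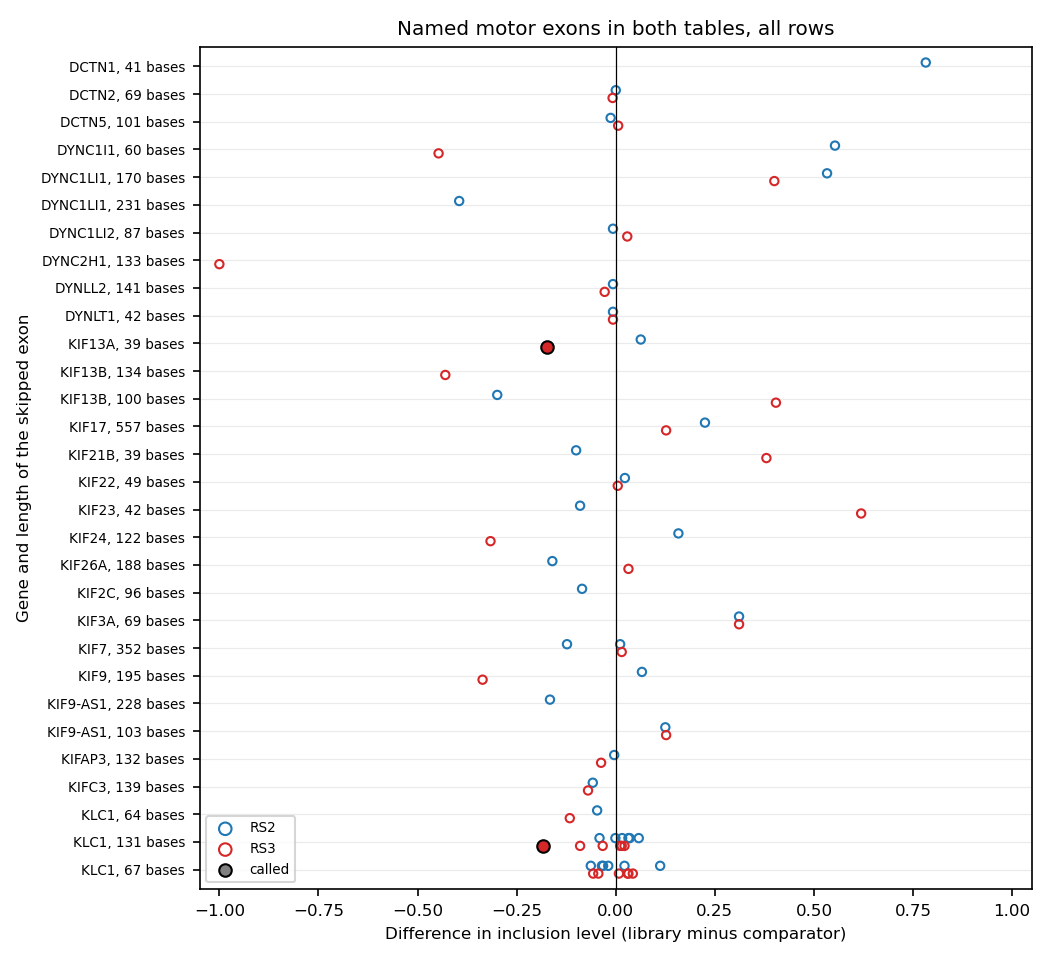
Difference in inclusion level (x axis, library minus comparator) of the 30 motor exons named by rule (y axis, gene and exon length), with all rows of each exon in RS2 (blue) and RS3 (red); filled points were called. The widest values, such as DYNC2H1 at -1 and DCTN1 at 0.782, were not called, while the called KLC1 and KIF13A rows are at -0.184 and -0.174.

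Over all members, differences were slightly narrower than over the tables as a whole. The median motor difference was 0.001 in both tables, against 0 in RS2 and -0.001 in RS3 over all events. The median absolute difference was 0.015 in RS2 and 0.0125 in RS3, against 0.018 and 0.02. A difference of at least 0.1, called or not, was listed for 24 motor events in RS2 (15.2%, against 19.2% of all events) and 28 in RS3 (16.7%, against 21.2%). Of the 45 symbols, 20 had every row of both tables under 0.05 in size and 12 had every row under 0.02, while 23 had a row of at least 0.1. These shares are given as a description and were not tested.

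Exon lengths were close to those of all listed exons. The median motor exon had 117 bases in both tables, against 119 in RS2 and 120 in RS3. Lengths that are multiples of 3 made up 43.7% of 135 motor exons in RS2 and 42.9% of 147 in RS3, against 41.3% and 41.4%. Exons of at most 51 bases made up 8.89% and 8.16%, against 6.46% and 6.33%, with 12 motor exons in each table.

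Genes that work with the motors, and some further motor subunits, were read from a separate list of 54 genes. Of these, 44 had events in RS2 and 46 in RS3. The list holds adaptors, regulators, microtubule proteins and other dynactin parts. It also holds motor subunits whose symbols fall outside the rule for members: the kinesin CENPE and the dynein chains WDR34, WDR60 and TCTEX1D2. In RS2, 1 of 44 genes (2.27%) had a called event, against 0.238% of all genes, and in RS3 2 of 46 (4.35%), against 3.06%. The list was chosen with earlier results of these data known, so these shares are a description and were not tested. RAB11FIP3, an adaptor that couples Rab11 endosomes to dynein, accounted for the RS2 call. Its 135-base exon (chr16:541134-541268 in hg19) was lower by the authors' deposited values of -0.286 in RS2 (FDR 0.027) and -0.304 in RS3 (FDR 0.00352), and both rest on the shared comparator. The other RS3 call was in MAP4, a protein that coats microtubules, where inclusion of a 93-base exon fell by 0.154 (FDR 0.00358) in the authors' deposited table. Its second RS3 row was -0.009, and its RS2 rows were -0.047 and 0.002.

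By the FDR alone, 5 of 218 partner events passed in RS3, most of them in MAP4, against 699 of 42518 (1.64%) over all events. Besides the called exons, further partner exons passed the FDR in RS3 with a difference under 0.1. They were a 216-base MAP4 exon (-0.028, FDR 2.1e-06), a 114-base MAP4 exon (-0.076, FDR 0.00124; other row -0.001) and a 105-base exon of CLIP2, a microtubule linker (-0.056, FDR 0.0386), in the authors' deposited table. In RS2 the same exons were 0.002, -0.017 and 0.006, and 0.015, in the authors' deposited table. The 63-base CLIP2 exon was -0.144 in RS2 (p = 0.0278, FDR 0.978) and -0.180 in RS3 (p = 0.00955, FDR 0.273) in the authors' deposited table. The smallest other RS2 p-values were for ACTR1B, a dynactin filament subunit (-0.028, p = 0.00652), MADD, which links KIF1 motors to vesicles (0.103, p = 0.0164), and PLEKHM2, which links lysosomes to kinesin-1 (0.067, p = 0.0228), in the authors' deposited table. Other RS2 rows of this MADD exon were -0.031 and 0.027. Over the partner list, an unadjusted p under 0.05 was listed for 6 of 209 events in RS2 (2.87%) and 16 of 218 in RS3 (7.34%), 15 of the latter with lower inclusion. Over all events the shares were 4.52% and 7.61%, and lower inclusion at this p made up 6.88% of partner events and 5.2% of all events in RS3.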

How the data were processed

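Exon-skipping tables of 3 libraries (BJ fibroblasts, 1 per siRNA) were read as deposited. STAR (an aligner), FastQC (a read quality tool) and hg19 are named in the submitters' processing notes; which splicing caller was used is not given in these sources. For each event the p-value, the FDR and the difference in inclusion level are the authors' deposited values, and the FDR covers the whole table. The difference was read as the first listed level minus the second, from rows at the head of the tables. The 4 columns of inclusion level per library are tied to no sample and entered no result. Depth is unknown, so no interval is given.

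Members were matched by symbol, exons by gene identifier, strand, start and end. Coordinates are hg19, counted from 1. Members and lists were chosen with earlier results of these data known. Named exons were those called, up to 15 per table with p under 0.05 and 0.1 or more in size, the smallest p per subfamily, and the 5 largest differences per table; the partner list gave its called exons and 5 smallest p-values per table. Motor exons outside this rule are printed to account for the rest of a gene and were chosen after their values were seen. Adjusting the deposited p-values anew by Benjamini-Hochberg (statsmodels 0.14.6) moved 0 events across 0.05. The calling step was run on simulated data. Unchanged simulated events all had differences under 0.1, so this checked the code and not the rate of false calls. Of 159 motor exons, 132 had exactly 1 exon of equal length in their gene in GENCODE release 29; 87 of 89 distances between neighbouring matched exons were equal, among them every such distance in KLC1, KIF13A and KIFC3. Alternatives varied the FDR, the minimum difference and the rows per exon.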

Additional observations from a re-analysis of the deposited data

Results flagged for a closer look

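The 131-base exon of KLC1 had a deposited p under 0.05 in both tables with opposite signs, at 0.058 in RS2 (p = 0.0056, FDR 0.587) and -0.184 in RS3 (p = 4.98e-10, FDR 2.08e-07) in the authors' deposited table. RS3 was not tested against RS2. Each table lists 6 rows of this exon without flanking exons, and these 2 rows cannot be paired as the same event.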

How the results depend on the processing

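Of 70 recalculated values, 55 stayed within 1.5 times the main count or within its binomial interval, which treats the rows of an exon as independent. This tally does not measure robustness, because many settings could not change a count. The RS2 motor counts were 0 under every setting, and with a smallest RS2 motor FDR of 0.587 no FDR cutoff tried could change them. The RS3 counts of motor events, exons and genes, each 2, rest on the same 2 calls. They became 0 with a minimum difference of 0.2 and when an FDR under 0.01 was required as well, and 1 (KLC1) with an FDR under 0.01. Partner genes with a call went from 1 to 0 in RS2 with an FDR under 0.01, with or without the higher minimum difference, and from 2 to 1 in RS3 with a minimum difference of 0.2, with or without an FDR under 0.01. The share of motor events went from 15.2% to 7.59% in RS2 and from 16.7% to 8.93% in RS3 when a difference of 0.2 in place of 0.1 was required, which by construction lowers it. No paired analysis was possible because each group has 1 library. Leaving out a library was not possible for the same reason, and precision is limited by unknown depth, by a single comparator library and by rows without flanking exons.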
